A study of Mus musculus with 6 samples.

Results

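The subject here is the histone gene family of the mouse as measured in mammary epithelial organoids. A probe set, the group of array probes that gives 1 expression value, was taken as a histone probe set when every gene symbol annotated to it named a linker histone, a core histone or a histone variant. Of 34760 probe sets, 58 met this rule, and they name 72 histone genes among 21334 genes named in the table. Of these, 42 name 1 histone gene each and cover 41 genes, since H2az1 has 2 probe sets. They divide into 8 linker histones, 24 replication-dependent core histones (4 H2A, 11 H2B, 3 H3 and 6 H4) and 10 variants. The other 16 name several histone genes at once and were kept apart, as the probes lie on near-identical copies and their signal cannot be assigned to 1 gene. H4f16 stands with the variants by its name although it encodes an H4 protein. Of the 42 probe sets with 1 name, 24 are annotated to genes on chromosome 13, where the large histone cluster of the mouse lies.

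The organoids were clumps of gland epithelium released by enzymes from age-matched female FVB mice of the ErbB3 DOX-KO line and grown in a basement-membrane gel. Doxycycline (DOX) is the inducer of this line's knockout of Erbb3, a receptor gene. Cultures that received it at 5 µM over 14 days gave 3 arrays labelled DOX, and cultures of the same genotype without the drug gave 3 control arrays. All 6 cultures therefore carry the inducible construct, and control cultures differ in having had no drug. The promoter that drives the inducible system and the part of Erbb3 it removes are not given in the labels. Because no organoids without the construct were treated with doxycycline among these arrays, the drug and the knockout cannot be told apart. The replicates are called biological in the design text. It does not say that they came from separate mice, so p-values measure the spread between these samples.

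Histones are the proteins around which nuclear DNA is wound. A nucleosome holds a core of the histones H2A, H2B, H3 and H4, and a linker histone of the H1 family binds where DNA enters and leaves that core. Most core and H1 genes are replication-dependent: they are transcribed together in S phase, when new DNA needs new histones, and their mRNAs end in a stem-loop bound by the protein SLBP instead of a poly(A) tail. Variant histones such as H2A.Z, H3.3 and macroH2A are made from separate genes throughout the cell cycle, mostly with polyadenylated mRNAs, and are placed into chromatin by their own chaperones.

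The 150 bases before the annotated start of 8 histone genes are shown because the genes differ in what they did on these arrays: H1f5, H1f1, H2ac4, H2bc14 and H4c6 were lower in the arrays labelled DOX, H1f2 was not, and H2az1 and H2az2 are variants of the same H2A.Z type. The sequences are RefSeq promoters of the GRCm38.p6 build, written 5′ to 3′ in the direction of transcription. Capitals mark any of 4 motifs found on either strand: AAACACA (a box known from H1 genes), the CCAAT box, the TATA box written as TATANA with N for any base, and the octamer bound by OCT1, written as ATTTGCAT. Overlapping TATANA matches run together.
H1f5, chr13:21780626-21780775 (- strand): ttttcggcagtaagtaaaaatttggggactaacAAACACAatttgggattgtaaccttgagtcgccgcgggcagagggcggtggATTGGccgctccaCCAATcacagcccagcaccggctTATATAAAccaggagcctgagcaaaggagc
H1f1, chr13:23763518-23763667 (+ strand): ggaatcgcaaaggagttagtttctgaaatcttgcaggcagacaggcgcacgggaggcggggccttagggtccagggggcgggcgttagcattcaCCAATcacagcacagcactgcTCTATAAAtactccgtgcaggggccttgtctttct
H1f2, chr13:23738657-23738806 (+ strand): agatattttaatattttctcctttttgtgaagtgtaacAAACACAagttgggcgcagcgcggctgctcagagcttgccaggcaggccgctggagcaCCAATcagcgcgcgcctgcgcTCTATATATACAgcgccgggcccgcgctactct
H2ac4, chr13:23750938-23751087 (+ strand): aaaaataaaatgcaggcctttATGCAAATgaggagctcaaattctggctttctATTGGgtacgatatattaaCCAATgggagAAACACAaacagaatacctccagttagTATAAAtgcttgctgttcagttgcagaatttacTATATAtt
H2bc14, chr13:21721894-21722043 (+ strand): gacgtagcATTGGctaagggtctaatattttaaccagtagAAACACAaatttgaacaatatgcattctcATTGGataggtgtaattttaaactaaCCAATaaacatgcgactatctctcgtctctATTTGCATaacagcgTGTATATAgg
H4c6, chr13:23551669-23551818 (- strand): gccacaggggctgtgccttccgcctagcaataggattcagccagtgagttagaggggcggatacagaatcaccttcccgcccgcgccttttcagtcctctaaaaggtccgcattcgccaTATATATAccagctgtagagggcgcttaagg
H2az1, chr3:137864337-137864486 (+ strand): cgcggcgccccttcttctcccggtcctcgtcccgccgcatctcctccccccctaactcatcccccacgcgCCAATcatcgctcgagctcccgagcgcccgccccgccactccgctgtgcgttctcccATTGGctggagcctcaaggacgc
H2az2, chr11:6444444-6444593 (- strand): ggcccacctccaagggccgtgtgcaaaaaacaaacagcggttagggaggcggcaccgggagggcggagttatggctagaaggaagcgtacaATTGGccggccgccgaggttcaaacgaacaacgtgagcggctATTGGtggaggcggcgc
Of the 41 genes named alone by a probe set, 34 had a promoter entry. Within the same window, AAACACA was found in 4 of 8 linker promoters, 3 of 19 core promoters and 0 of 7 variant promoters, against 3.53% of 32851 promoters in the RefSeq table. CCAAT was found in 6 of 8 linker, 15 of 19 core and 4 of 7 variant promoters, against 24.5% of all promoters. TATANA was found in 5 of 8 linker, 13 of 19 core and 0 of 7 variant promoters, against 13.3% of all. The octamer was found in 0 of 8 linker, 7 of 19 core and 0 of 7 variant promoters, against 0.998% of all. The 7 octamer promoters are 3 of the 4 H2A and 4 of the 8 H2B entries. The windows of H2ac8 and H2bc8 overlap, as do those of H2ac1 and H2bc1, so a motif there can count for both genes. H1f5 and H1f2 both hold AAACACA, at 117 and 112 bases before the start, and both hold CCAAT and a TATA box, so these letters do not separate the pair. H2az1 and H2az2 hold CCAAT at 2 places each and none of the other motifs. A match describes letters only.

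The deposited values are log2 expression values, so a difference of 1 is a doubling. Differences are DOX minus control, the test is limma's moderated test with Benjamini-Hochberg adjustment over all 34760 probe sets, and a probe set is called at adjusted p under 0.05. DOX replicate 2 stood apart: its quartiles were 4.83 and 6.90, against 4.10 to 4.29 and 7.34 to 7.46 on the other arrays, and it correlated with them at 0.783 to 0.854, where the other 5 arrays correlated with each other at 0.956 or more. The fit was therefore also run without DOX replicate 2, and the counts for the family and its classes are given for both fits. The targeted gene Erbb3 had 10.36, 9.31 and 9.82 in the arrays labelled DOX, against 9.78, 9.71 and 9.69 in the control arrays, a difference of 0.10 (limma adjusted p = 0.853) and of 0.37 without DOX replicate 2 (adjusted p = 0.217). It did not pass as lower in the arrays labelled DOX. The removed part of Erbb3 is not given, so the knockout cannot be checked from this probe set. The epithelial markers Epcam, Cdh1, Krt8 and Krt18 were bright on every array. Krt19, another epithelial marker of the list, lay below the median level of the table on every array. Krt5, a basal keratin, lay near that level (4.99 to 5.56 in DOX and 4.84 to 5.49 in control arrays). Of 7 epithelial markers, 3 were called lower without DOX replicate 2: Krt8 by 0.74, Krt18 by 0.64 and the basal keratin Krt14 by 1.06. With all arrays limma called 0 of them, and 3 had an unadjusted p under 0.05. The mean level of the 7 was 8.37 to 8.71 in DOX and 9.09 to 9.16 in control arrays. For markers of other cell types the mean levels in DOX and control arrays were 5.30 to 6.25 and 5.35 to 5.52 for fibroblasts, 4.18 to 5.27 and 4.0 to 4.32 for endothelial cells, 5.46 to 5.89 and 5.22 to 5.34 for immune cells, and 4.21 to 4.91 and 4.19 to 4.2 for adipocytes. Of all these other-cell markers 1 was called, Cd68 of macrophages, higher by 1.01 without DOX replicate 2 (adjusted p = 0.00482). In that fit 8.16% of all probe sets were called higher. Of 6 markers of dividing cells, 5 were measured by a probe set of their own and all 5 were called lower with and without DOX replicate 2. Their mean level was 5.33, 5.61 and 5.63 in the DOX arrays, against 8.62, 8.55 and 8.67 in the control arrays. The part of this marker shift in the histone differences was not tested, and in bulk RNA fewer dividing cells and less histone mRNA per cell cannot be told apart.

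Histone probe sets were mostly lower in the arrays labelled DOX. With all 6 arrays, 17 of 58 (29.3%) were called lower and 0 higher, against 1.19% of all probe sets called lower and 0.233% called higher. Without DOX replicate 2, 30 were called lower (51.7%) and 2 higher, against 7.58% and 8.16% of all probe sets. The median difference of the 58 was −1.01, or −0.71 in the fit without DOX replicate 2, where the medians of the whole table were 0.08 and 0.04. In 44 of the 58 every DOX array lay below every control array, which held for 16.0% of all probe sets, and in 2 every DOX array lay above, which held for 15.3%. These counts were 44 and 3 without DOX replicate 2, against 22.3% and 26.6% of all probe sets. The members share sequence and a mode of expression, so these counts are not counts of independent genes. The call also needs all 3 control arrays: with any 1 of them left out, limma called 0 probe sets in the whole table (lowest adjusted p 0.0597 to 0.062), while 28 to 34 of the 58 members and 2668 to 2926 of all probe sets had an unadjusted p under 0.05. Without DOX replicate 1 or 3, 9 and 7 members were called lower.

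The calls came nearly all from members that lay above the table's median level. The median control value of the whole table was 5.36. Of 44 members with a control mean above it, 17 were called lower with all arrays, and 29 lower and 2 higher without DOX replicate 2, with median differences of −1.24 and −1.07. Of the 14 at or below it, 0 were called with all arrays and 1 was called lower without DOX replicate 2, with medians of −0.21 and −0.08. The array gives no detection call, so a gene that is not expressed and a gene whose difference is compressed near the low end cannot be told apart among those 14. The shares of all probe sets called on each side of this level were not counted. With the dimmest 50% of the table left out, limma with all arrays called 15 of 38 members, all lower. It then called 565 of 17380 probe sets, of which 14.0% were higher.

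**Figure D1:**
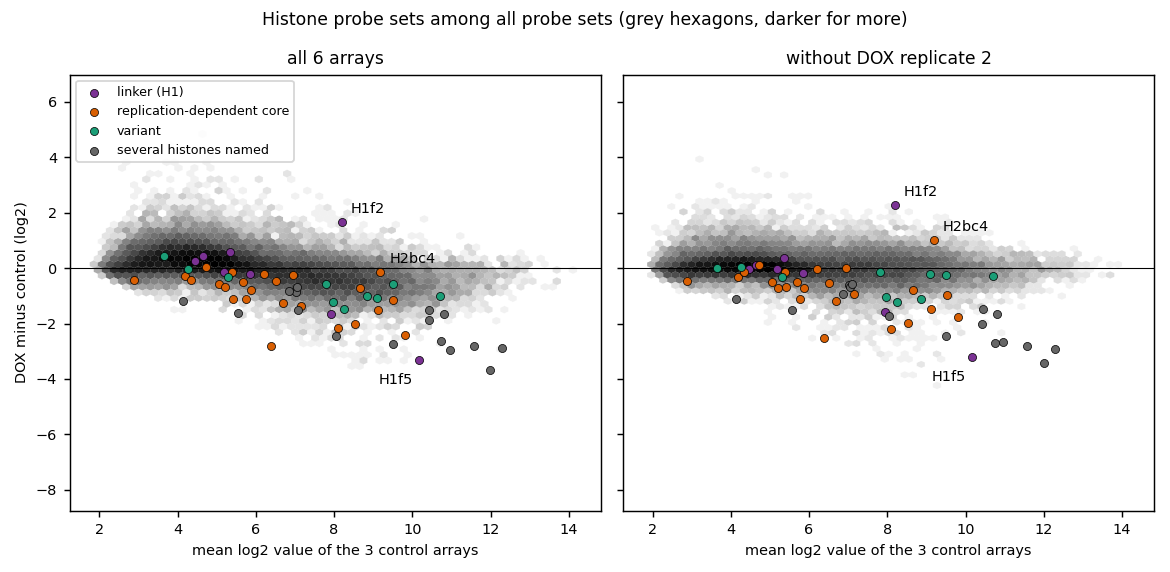
Each circle is 1 histone probe set, coloured by class, at its mean log2 value on the 3 control arrays (x axis) and its DOX minus control difference on the log2 scale (y axis), over hexagons that count all 34760 probe sets, with all 6 arrays on the left and without DOX replicate 2 on the right. Most histone circles above a control value of 6 lie below 0, H1f5 and the probe sets of several names lie lowest, and H1f2 lies highest.

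The linker histones went different ways. H1f5, which encodes the replication-dependent linker histone H1.5, had log2 values of 7.07, 6.61 and 6.83 in DOX arrays, against 10.12, 10.31 and 10.05 in control arrays. The groups were clear of each other, by far more than the spread within either (means of 6.84 ± 0.23 in DOX and 10.16 ± 0.13 in control, SD, n = 3 each). The difference was −3.32 (SE 0.20, limma adjusted p = 0.00369) and, without DOX replicate 2, −3.21 (SE 0.14, adjusted p = 0.000278), which is 9.25-fold lower. H1f1, the gene of H1.1, had 6.30, 6.17 and 6.41 in DOX arrays, against 7.80, 7.95 and 8.05 in control arrays, again with no overlap. It fell by 1.64 (SE 0.18, limma adjusted p = 0.0143). Leaving out DOX replicate 2 gave −1.58 (adjusted p = 0.0013).

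H1f2, the gene of the linker histone H1.2, went the other way from H1f5 and H1f1. It had 10.44, 8.64 and 10.48 in DOX arrays, against 8.39, 7.88 and 8.31 in control arrays. Every DOX array lay above every control array, with DOX replicate 2 close to the controls. With all 6 arrays the difference of 1.66 (SE 0.52) was not called (limma adjusted p = 0.236). Without DOX replicate 2 H1f2 rose by 2.27 (SE 0.18, adjusted p = 0.00128), a 4.82-fold higher level. H1f2 and H1f5 thus differed in opposite directions on the same DOX arrays.

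The remaining 5 linker members lay near the table's median level or below it, and none passed the test in either fit. H1f3, the gene of H1.3, had 5.31, 4.82 and 5.00 in DOX arrays, against 5.11, 5.24 and 5.22 in control arrays, with an interval of −0.36 to 0.29 for the difference without DOX replicate 2. H1f10, a linker histone expressed outside S phase, differed by −0.22 with all arrays and −0.18 without DOX replicate 2. H1f6 and H1f7, known from testis, and H1f8, known from the oocyte, differed by 0.26, 0.58 and 0.45 with all arrays, and by −0.02, 0.38 and 0.10 without DOX replicate 2. Of these, H1f7 had 5.64, 6.32 and 5.82 in DOX arrays, against 5.43, 5.34 and 5.29 in control arrays, and its adjusted p was 0.328, and 0.0801 without DOX replicate 2. H1f0, the linker histone of resting and differentiated cells, and H1f4 have no probe set here that names them alone.

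**Figure D2:**
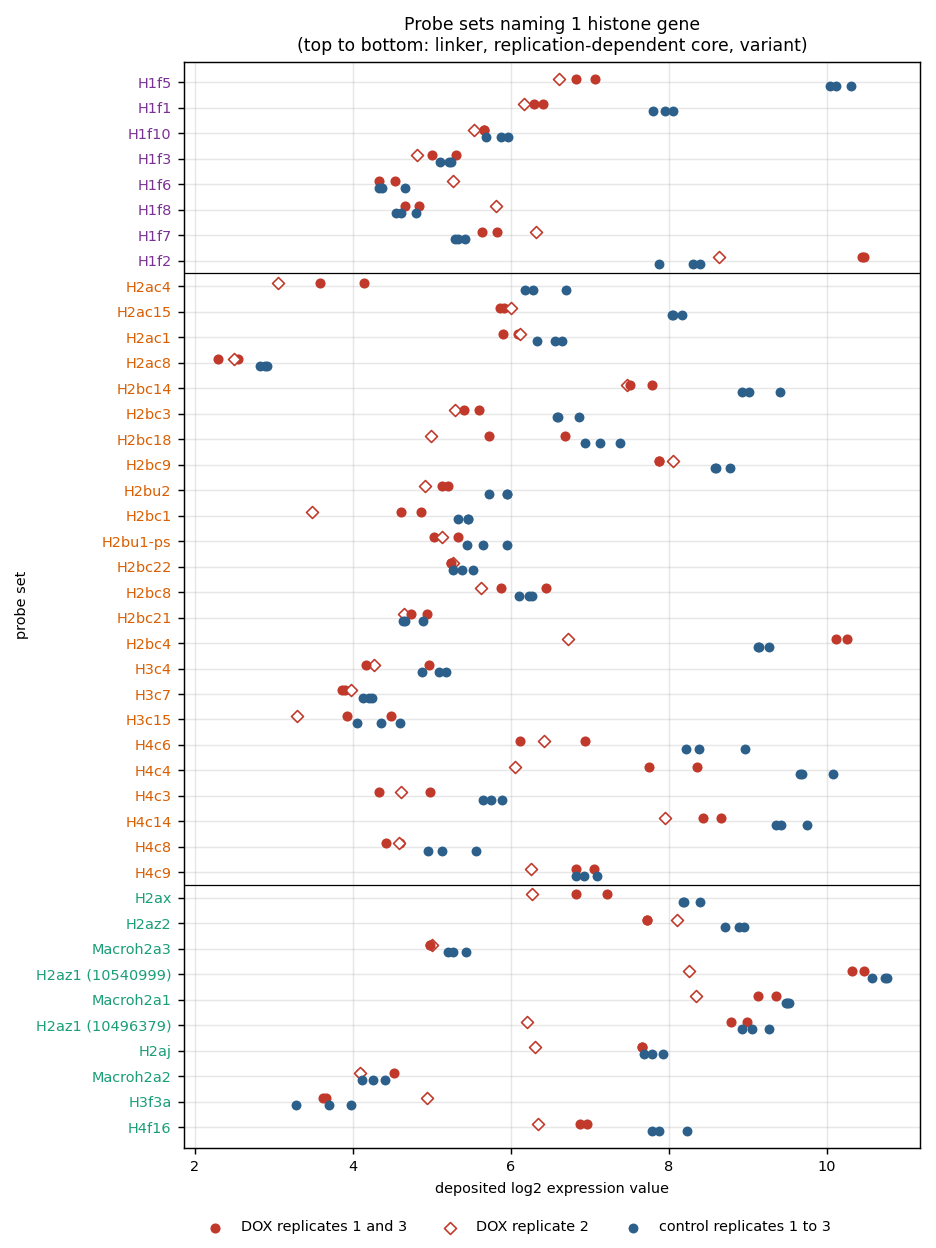
The deposited log2 value (x axis) of each probe set that names 1 histone (rows, by class), with arrays labelled DOX in red above control arrays in blue in each row and DOX replicate 2 as an open diamond. H1f5, H2ac4 and H2ac15 show wide gaps with DOX below control, H1f2 shows the opposite gap, and in H2bc4 and both H2az1 rows DOX replicate 2 lies alone on the left.

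Of the 24 core members, 5 were called lower and 0 higher with all arrays, and 11 lower and 1 higher without DOX replicate 2. Over all probe sets, 1.19% were called lower and 0.233% higher with all arrays, and 7.58% lower and 8.16% higher without DOX replicate 2. The median difference of the core members was −0.70 and −0.69. In 18 of the 24 every DOX array lay below every control array, as in 16.0% of all probe sets.

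Of the 4 H2A genes, 2 were called lower in both fits. H2ac4 had 4.14, 3.05 and 3.58 in DOX arrays, against 6.18, 6.70 and 6.28 in control arrays. It fell by 2.79 (SE 0.32, limma adjusted p = 0.0162), and without DOX replicate 2 the difference was −2.53 (adjusted p = 0.00205), which is 5.76-fold and ends near the low end of the scale. H2ac15 was close to equal within each group, with 5.92, 6.00 and 5.86 in DOX arrays, against 8.05, 8.17 and 8.06 in control arrays. It fell by 2.17 (SE 0.17, adjusted p = 0.00554), and without DOX replicate 2 the difference was −2.20, which is 4.6-fold. DOX replicate 2 lay with the other DOX arrays in this probe set. H2ac1, an H2A known from testis, and H2ac8, at 2.29 to 2.55 in DOX and 2.82 to 2.92 in control arrays among the dimmest values of the family, differed by −0.48 and −0.43 and were not called in either fit.

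The H2B genes did not all go the same way. H2bc14 had 7.79, 7.47 and 7.51 in DOX arrays, against 9.01, 9.41 and 8.93 in control arrays, and fell by 1.53 (SE 0.21, limma adjusted p = 0.0299). H2bc3 had 5.60, 5.29 and 5.41 in DOX arrays, against 6.59, 6.86 and 6.60 in control arrays, and fell by 1.25 (SE 0.19, adjusted p = 0.0379). The differences without DOX replicate 2 were −1.47 for H2bc14 and −1.18 for H2bc3. These were the 2 of 11 H2B members called with all arrays, and in both the groups were clear of each other. Without DOX replicate 2, H2bc9, H2bu2 and H2bc1, the H2B gene known from testis, were called lower as well, by 0.78, 0.71 and 0.68, where the differences with all arrays were −0.72, −0.80 and −1.10. H2bc18 had 6.68, 4.99 and 5.73 in DOX arrays, against 7.13, 7.38 and 6.94 in control arrays, and its difference of −0.95 without DOX replicate 2 was not called (adjusted p = 0.0813).

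H2bc4, described after its values were seen, went the other way on DOX replicates 1 and 3. It had 10.26, 6.73 and 10.12 in DOX arrays, against 9.28, 9.14 and 9.13 in control arrays. Replicate 2 alone lay below the controls and the other two DOX arrays above them, so the difference was −0.14 (SE 0.93, limma adjusted p = 0.938) with all arrays. Without DOX replicate 2 it rose by 1.01 (SE 0.11, adjusted p = 0.00417), a 2.01-fold higher level. This rests on the 1 probe set that names H2bc4 alone. The 6 H2B probe sets left out by the name rule, described below, name H2bc4 among other genes, and all 6 were called lower in that fit. The genes between H2bc4 and H1f2, the other member called higher, are H1f6, H4c3, Hfe and Gm11338 in the RefSeq order on chromosome 13. Of these, H1f6 was not called and H4c3 was called lower without DOX replicate 2 (−1.10, adjusted p = 0.0197). The H2B members with the smallest differences gave −0.14 for H2bc22, −0.22 for H2bc8 and 0.05 for H2bc21 with all arrays, none of them called, and that of H2bc21 turned negative under other scalings between arrays.

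The 3 H3 probe sets of 1 gene each, H3c4, H3c7 and H3c15, were dim, with 3.29 to 4.96 in DOX arrays and 4.05 to 5.18 in control arrays, and none was called. Among the 6 H4 genes, H4c6 had 6.94, 6.42 and 6.11 in DOX arrays, against 8.22, 8.97 and 8.38 in control arrays. It fell by 2.03 (SE 0.31, limma adjusted p = 0.0376), and the level without DOX replicate 2 was 3.99-fold lower (adjusted p = 0.0122). H4c4, H4c3 and H4c14 were called without DOX replicate 2, at −1.75, −1.10 and −0.96, where the differences with all arrays, −2.42, −1.12 and −1.16, were not called. H4c4 had 8.36, 6.06 and 7.75 in DOX arrays, against 9.68, 10.08 and 9.66 in control arrays, so replicate 2 lay farthest from the controls there. H4c9 differed by −0.24 and −0.01 and H4c8 by −0.68 and −0.70, neither called in either fit.

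Probe sets that name several histones were lower throughout. All 16 had every DOX array below every control array, as in 16.0% of all probe sets. With all arrays 10 were called lower and 0 higher, with a median difference of −1.76. Without DOX replicate 2 the figures were 14, 0 and −1.69. Over all probe sets, 1.19% were called lower with all arrays and 7.58% without DOX replicate 2. Each of the 9 H3 probe sets carries 12 gene names, so they share targets and are not 9 separate genes. Of these 9, 6 were called lower with all arrays and 7 without DOX replicate 2.

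The H3 probe set 10494405 had 8.80, 7.79 and 8.37 in DOX arrays, against 11.87, 12.28 and 11.83 in control arrays. It fell by 3.67 (SE 0.30, limma adjusted p = 0.00612), and without DOX replicate 2 the difference was −3.41 (adjusted p = 0.000591), 10.6-fold. The H3 probe set 10408246 had 8.86, 8.71 and 8.66 in DOX arrays, against 11.47, 11.76 and 11.48 in control arrays, and fell by 2.83 (adjusted p = 0.00447), with −2.81 without DOX replicate 2. Replicate 2 lay with the other DOX arrays in that probe set. In the H3 probe set 10494402, with 6.86, 3.72 and 6.14 in DOX arrays and 6.91, 7.42 and 6.92 in control arrays, it lay far below them, and the difference of −1.51 was not called (adjusted p = 0.412). H3 transcripts were thus lower in the probe sets that pool the H3 genes, while the 3 H3 probe sets of single genes lay low on the scale and were not called.

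The 5 H4 probe sets of several names had a median difference of −1.64, with 3 called lower with all arrays and 5 without DOX replicate 2. Probe set 10404067 had 8.56, 8.83 and 8.25 in DOX arrays, against 10.26, 10.72 and 10.29 in control arrays, and fell by 1.88 (limma adjusted p = 0.0215), with −2.02 without DOX replicate 2. Probe set 10403945, which names H4c11 and H4c17, had 6.44, 4.18 and 6.20 in DOX arrays, against 7.98, 8.08 and 8.07 in control arrays. It was called without DOX replicate 2 (−1.72, adjusted p = 0.000965) but not with it (−2.44, adjusted p = 0.139). The probe set that names H2bc6 and H1f4 differed by −0.85 (adjusted p = 0.243) and by −0.60 without DOX replicate 2 (adjusted p = 0.0456). The probe set of 19 H2A and H3 names fell by 1.62 with all arrays (adjusted p = 0.032).

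**Figure D3:**
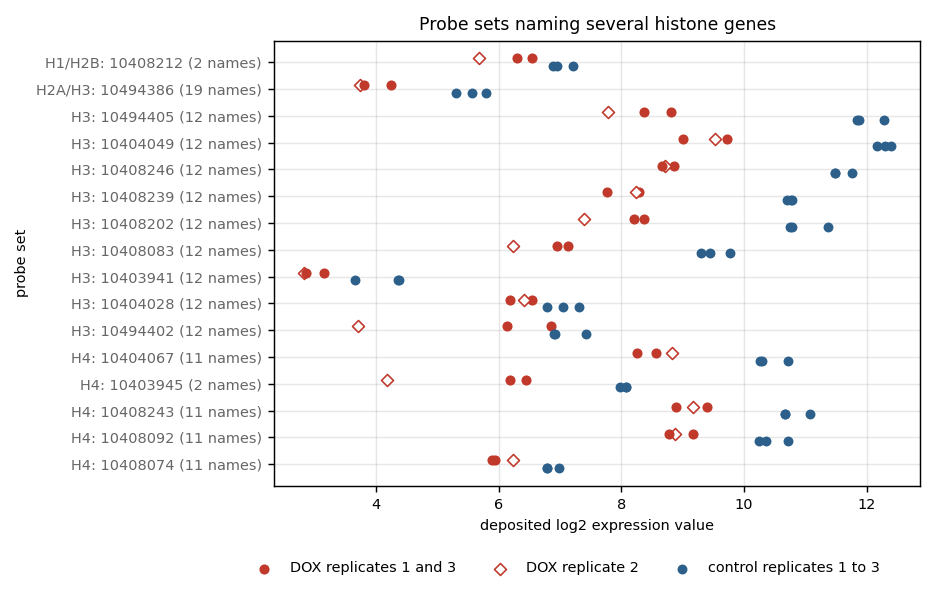
The deposited log2 value (x axis) of each of the 16 probe sets that name several histones (rows), with arrays labelled DOX in red above control arrays in blue and DOX replicate 2 as an open diamond. In all 16 rows the DOX points lie left of the control points, by the widest gap in the H3 probe set 10494405.

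A further 12 probe sets name histones next to a symbol that the name rule does not take, and they were left out of all counts above. Over all probe sets, 1.19% were called lower with all arrays and 7.58% without DOX replicate 2. Of the 6 H2B probe sets among the 12, 2 were called lower with all arrays and 6 without DOX replicate 2, with medians of −1.79 and −1.37. One of them, probe set 10403978, chosen after its values were seen, had 3.00, 2.11 and 3.77 in DOX arrays, against 9.08, 9.55 and 9.11 in control arrays, a difference of −6.29 (SE 0.43, limma adjusted p = 0.00447), and of −5.87 without DOX replicate 2. The 4 probe sets of H3f3a and 2 of H3f3b, the genes of the replication-independent H3.3, were called in neither fit. The brightest of them, of H3f3b, had 12.00, 10.23 and 12.03 in DOX arrays, against 11.70, 11.59 and 11.73 in control arrays.

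Calls among the variant members depended on the fit. Of 10 variant members, 0 were called with all arrays by limma, where 3 had an unadjusted p under 0.05. Without DOX replicate 2, 3 were called lower. Over all probe sets, 1.19% were called lower with all arrays and 7.58% without DOX replicate 2. With all arrays, centring each array on its median called 1 variant member lower and cyclic loess called 2. A second quantile normalization left the count as it was, and taking 1 probe set per gene called 1. In 7 of the 10 every DOX array lay below every control array, as in 16.0% of all probe sets. The median difference of the variant members was −0.80, or −0.28 in the fit without DOX replicate 2. H2ax, whose product is phosphorylated at DNA breaks, had 7.22, 6.26 and 6.83 in DOX arrays, against 8.18, 8.39 and 8.20 in control arrays. The groups did not overlap, and the difference was −1.49 (SE 0.28, limma adjusted p = 0.0709), and −1.23 without DOX replicate 2 (SE 0.15, adjusted p = 0.00596), 2.35-fold. H4f16, the member that encodes an H4, was called lower by 1.04 without DOX replicate 2 (adjusted p = 0.0114).

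Of the H2A.Z genes, H2az2 was called without DOX replicate 2 and H2az1 in neither fit. H2A.Z, encoded by H2az1 and H2az2, sits at promoters and enhancers. H2az2 had 7.72, 8.10 and 7.72 in DOX arrays, against 8.71, 8.95 and 8.89 in control arrays. The difference was −1.0 (SE 0.20, limma adjusted p = 0.0818) with all arrays, and H2az2 fell by 1.13 without DOX replicate 2 (SE 0.12, adjusted p = 0.00329). The brighter H2az1 probe set had 10.47, 8.26 and 10.33 in DOX arrays, against 10.77, 10.58 and 10.75 in control arrays, so only replicate 2 lay far from the controls. Without it the difference was −0.30 (adjusted p = 0.154), with an interval of −0.59 to −0.00, and the other H2az1 probe set gave −0.20 with an interval of −0.55 to 0.15. The difference between H2az1 and H2az2 was not tested.

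The macroH2A and remaining variant members did not pass in either fit. Macroh2a1, whose protein carries a large domain beside its histone part and is known from silent chromatin, had 9.37, 8.35 and 9.13 in DOX arrays, against 9.50, 9.52 and 9.49 in control arrays. Its difference was −0.26 without DOX replicate 2 (limma adjusted p = 0.196). H2aj, an H2A variant, had 7.66, 6.30 and 7.66 in DOX arrays, against 7.92, 7.69 and 7.79 in control arrays, and its difference was −0.59, or −0.14 in the fit without DOX replicate 2. Macroh2a2, Macroh2a3 and the single-name H3f3a probe set lay below the table's median level, with differences of −0.03, −0.32 and 0.42, and those of Macroh2a2 and H3f3a changed sign without DOX replicate 2.

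Taken array by array, the core class was low on each DOX array and the variant class mainly on replicate 2. The median deviation from the control mean on DOX replicates 1, 2 and 3 was −0.58, −1.01 and −0.78 for core members, and −1.50, −2.16 and −1.87 for probe sets of several names. It was −0.20, −1.33 and −0.35 for the variants and 0.04, 0.07 and −0.15 for the linker members. Over all probe sets it was 0.01, 0.14 and 0.05. On DOX replicates 1, 2 and 3, 19, 24 and 22 of the 24 core members lay below their control mean, and H2bc4 lay above it on replicates 1 and 3. The median deviation of the variants was largest in size on the array that stood apart, whose values over the whole table also rose less steeply with the control mean (slope 0.641, against 0.968 and 0.943 on DOX replicates 1 and 3).

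**Figure D4:**
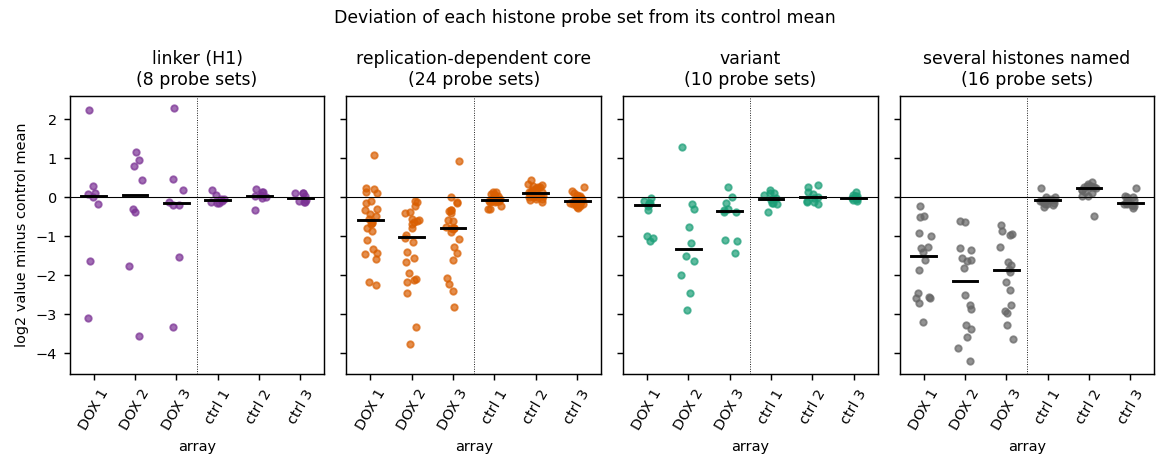
Deviation of each histone probe set from its control mean (y axis, log2) on each of the 6 arrays (x axis, the 3 arrays labelled DOX left of the 3 control arrays), in 1 panel per class. Core and several-name probe sets lie mostly below 0 on each DOX array, and variants lie lowest on DOX replicate 2. Among the unlabelled linker points on each DOX array, that of H1f2 lies above 0 and that of H1f5 lies lowest.

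A list of genes of S phase and DNA replication, and of histone transcription, mRNA processing and deposition, was set beside the family. Of 60 genes 56 were measured by a probe set of their own, of which 15 were called lower and 0 higher with all arrays, and 30 lower and 1 higher without DOX replicate 2, against the same shares of all probe sets as above. S-phase and histone transcription genes held most of these calls: 11 of 22 with all arrays and 18 of 22 without DOX replicate 2, with medians of −1.86 and −1.72. Ccna2, the cyclin A of S and G2 phase, had 4.72, 5.54 and 4.53 in DOX arrays, against 9.02, 8.89 and 8.96 in control arrays, and fell by 4.02 (limma adjusted p = 0.0049), with −4.33 without DOX replicate 2. Rrm2, a subunit of the enzyme that makes deoxynucleotides, fell by 3.12 (adjusted p = 0.00447) and Mcm6, part of the replicative helicase, by 2.96 (adjusted p = 0.00369), with −3.27 and −3.03 without DOX replicate 2. Npat, the coactivator that turns on replication-dependent histone genes, had 7.86, 5.39 and 7.44 in DOX arrays, against 7.38, 7.38 and 7.31 in control arrays. It was called in neither fit, and its difference was −0.46, or 0.30 in the fit without DOX replicate 2 (adjusted p = 0.697 and 0.244). Casp8ap2, in the same part of the list, was also called in neither fit (limma adjusted p = 0.504 and 0.704).

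Genes of histone mRNA 3′ end processing had a median difference of −0.72, or −0.24 in the fit without DOX replicate 2. Of 7 measured, 0 were called with all arrays by limma, where 1 had an unadjusted p under 0.05, and 2 were called lower without DOX replicate 2. Slbp, the stem-loop binding protein, had 7.99, 5.97 and 7.93 in DOX arrays, against 8.39, 8.32 and 8.44 in control arrays, with a difference of −1.09 (adjusted p = 0.406), and was called lower by 0.42 without DOX replicate 2 (SE 0.11, adjusted p = 0.0456). Eri1, the exonuclease that trims and degrades histone mRNA, was called lower by 0.60 in that fit (adjusted p = 0.0313).

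Among replication-coupled chaperones 3 of 12 were called lower with all arrays, and 5 lower and 1 higher without DOX replicate 2. Of all probe sets, 1.19% were called lower with all arrays, and 7.58% lower and 8.16% higher without DOX replicate 2. The paired H3–H4 chaperones did not go the same way. Asf1b had 6.01, 7.09 and 5.90 in DOX arrays, against 8.46, 8.60 and 8.36 in control arrays, and fell by 2.14 (limma adjusted p = 0.0456). Asf1a had 7.89, 5.52 and 7.71 in DOX arrays, against 7.37, 7.19 and 7.37 in control arrays, with a difference of −0.27 (adjusted p = 0.822), and was called higher by 0.49 without DOX replicate 2 (adjusted p = 0.0458). Tonsl and Mms22l, partners in reading new H4 at replication forks, fell by 1.18 and 1.40 with all arrays, with −1.28 and −1.30 without DOX replicate 2. Nasp, a store of soluble H3–H4, was called in neither fit (−0.50 and −0.37).

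Of 14 measured genes that deposit variants, 0 were called with all arrays by limma, where 3 had an unadjusted p under 0.05. Such a p was found for 5106 of the 34760 probe sets of the table. Without DOX replicate 2, 4 of the 14 genes were called lower, against 7.58% of all probe sets, with a median of −0.09 over the 14. Those 4 were Znhit1, Ruvbl1, Ruvbl2 and Yeats4, subunits of the complexes that exchange H2A.Z, at −0.83, −0.52, −0.53 and −0.49. Other subunits of those complexes in the list were not called: Srcap gave 0.44, Ep400 0.51 (adjusted p = 0.0502) and Vps72 0.12. Hira, the chaperone of H3.3, differed by 0.07 and 0.18 and was called in neither fit. Cenpa, the H3 variant of centromeres, which the name rule does not take, had 5.72, 6.79 and 6.16 in DOX arrays, against 8.31, 8.44 and 8.30 in control arrays, and fell by 2.13 (SE 0.29, adjusted p = 0.0289), while the fit without DOX replicate 2 gave −2.41 (adjusted p = 0.000759).

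**Figure D5:**
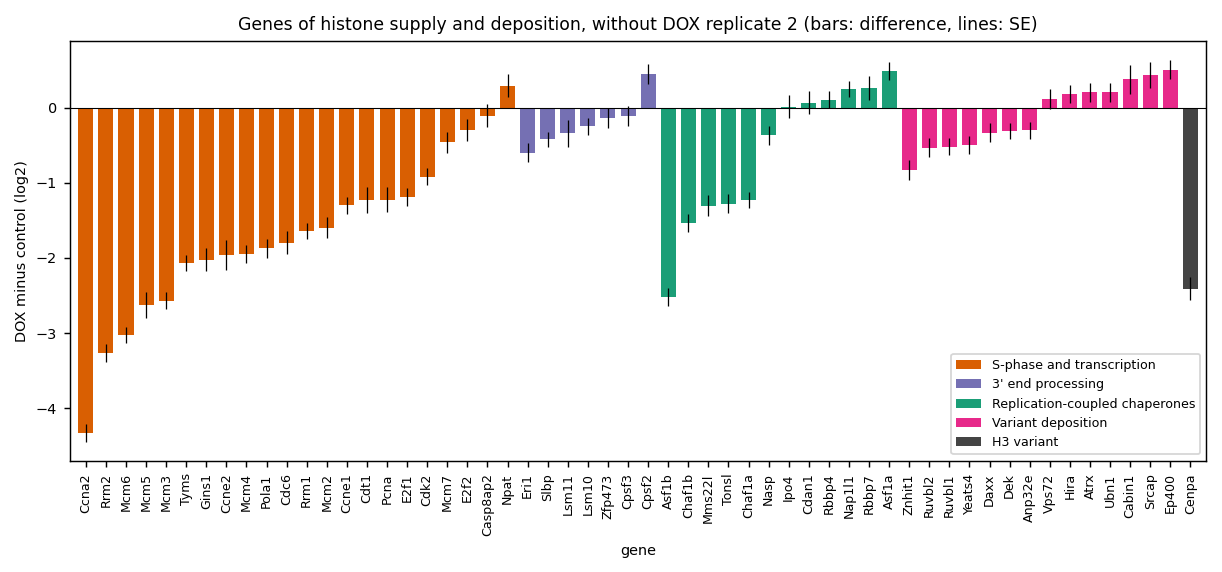
DOX minus control difference on the log2 scale (y axis, bars, with standard errors as lines) without DOX replicate 2 for each measured gene of histone supply and deposition (x axis), coloured by role. Bars of S-phase genes such as Ccna2 and Rrm2 reach far below 0, while no bar for 3′ end processing or variant deposition reaches −1.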

How the data were processed

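RNA of 3 organoid cultures labelled DOX and 3 control cultures was hybridised to 1-colour whole-transcript arrays for the mouse from Affymetrix. The values deposited by the authors are log2 expression values per probe set. RMA and affy are the tools listed, without versions, per the submitters' processing notes. They were used as deposited. RMA gives no detection call, so differences near the low end can be understated. Which genome build the array annotation used is not given.

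Of 34760 probe sets, 21640 had 1 gene symbol, 1321 several and 11799 none. Groups came from the sample titles. All probe sets entered limma 3.58.1 in R 4.3.3 (lmFit, eBayes, no covariates, two-sided), with Benjamini-Hochberg adjustment over all of them, a threshold of 0.05 and 95% intervals. The number of arrays limits the precision. The fit was tested on simulated data. Their noise was drawn from the spread of the 5 arrays other than DOX replicate 2, so the fit was not tried with an array that stands apart.

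Histone members and gene lists were chosen with earlier results of these data known. In each class, up to 6 probe sets past the threshold by smallest p, those with the largest and smallest difference, and a fixed set of variants were named. The remaining members, and some supply genes and cell markers, are described after their values were seen. Promoters were RefSeq sequences. Alternatives were leaving out each array, a replicate block, other scalings between arrays, filters on dim probe sets, robust estimation with a variance trend, 1 probe set per gene and only probe sets with a symbol. A second quantile normalization without DOX replicate 2 was chosen after seeing the data.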

Additional observations from a re-analysis of the deposited data

How the results depend on the processing

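The 3 arrays per group set what these data can resolve, and dim probe sets have compressed differences. The variant median, −0.80 as deposited, lay between −0.88 and −0.28 with 1 array left out, the smaller size without DOX replicate 2. Leaving out 1 array gave 0 to 2 linker probe sets called lower and 0 to 1 higher, 0 to 11 core called lower and 0 to 1 higher, 0 to 3 variant called lower, 0 to 14 of several names called lower, 0 to 30 supply genes lower and 0 to 1 higher, and 0 to 2634 lower and 0 to 2835 higher over the whole table. The lowest counts came without a control array, the highest without DOX replicate 2; without DOX replicates 1 and 3, 165 and 125 probe sets of the table were lower.

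The titles number the replicates without saying that the numbers pair the samples. Deviations of same-numbered samples from their group means correlated at 0.062, 0.092 and 0.030. DOX replicate 2 weighs on the DOX group mean, so these correlations cannot settle whether the samples are paired. With the replicate block, limma called 0 linker, core, several-name or supply probe sets and 0 in the table, where 4456 had an unadjusted p under 0.05.

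A second quantile normalization called 3 core probe sets lower and 164 of the table higher. With DOX replicate 2 left out too, it called 14 core and 3 variant members lower, 1 linker and 1 core higher, and 2997 of the table lower and 2796 higher. Cyclic loess called 1 linker higher, 2 variants lower, and 882 of the table lower and 482 higher, which is 35.3% higher against 16.3% as deposited. Centring each array on its median, and 1 probe set per gene, each called 1 variant lower. With 1 probe set per gene 24 were called higher, and with symbols only 29.

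The linker median, 0.06 as deposited, was −0.15 after centring, −0.21 after cyclic loess, −0.24 after the second quantile normalization, −0.14 with DOX replicate 2 also left out, and −0.22 without the dimmest 50%. The table's own median, 0.08, was −0.12, 0.013, −0.033, −0.025 and −0.18 under the same settings. Without the dimmest 50% the core and several-name medians were −1.21 and −2.16.

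Of the values described, 2 changed sign and were called on the other side, both without DOX replicate 2: H2bc4, −0.14 with all arrays, at 1.01 (−0.76 to 1.01 with 1 array left out, 0.27 after cyclic loess, 0.0099 after the second quantile normalization), and Asf1a, −0.27 with all arrays, at 0.49 (−0.70 to 0.49). The other sign changes were not called on either side: H2bc21 (−0.16 centred, −0.28 cyclic loess, −0.26 second quantile, −0.033 to 0.13 with 1 array left out), H1f6 (−0.079 cyclic loess, −0.059 second quantile, −0.019 to 0.45), H3f3a (−0.011 to 0.65), the bright H3f3b probe set (0.088 cyclic loess, −0.56 to 0.34), Macroh2a2 (−0.17 to 0.048), Npat (−0.94 to 0.30), Hira (−0.13 centred, −0.026 to 0.18), Vps72 (0.13 cyclic loess, −0.38 to 0.12), Krt5 (−0.14 centred, −0.18 cyclic loess, −0.18 second quantile, −0.13 to 0.23) and Erbb3 (−0.10 centred, −0.16 to 0.37). The causes were not tested. Of 1273 values of the probe sets described, under the alternatives, 1058 kept direction and side of the threshold, 151 were no longer called, 35 became called and 29 changed sign.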
